A study of Mus musculus with 12 samples.

Results

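The 4 inhibitor of DNA binding genes (Id1, Id2, Id3 and Id4) and 5 feedback genes of TGF-beta signalling (Smad6, Smad7, Skil, Bambi and Inhba) were followed through the RNA of C18-4 cells, an immortalized mouse spermatogonial line used to model the stem cells of the testis. They were picked by gene symbol and are 9 of the 17576 genes in the table. The cells carried stable lentivirus constructs in 4 groups of 3 libraries each. 3NC carried the vector LV3 with a control shRNA, and the group labelled C18_5251KD (KD below) carried LV3 with shRNAs directed at lncRNA5251. 5NC carried the vector LV5 with no insert, and C18_5251OV (OV below) carried LV5 with full-length lncRNA5251. All groups were the same line grown in DMEM/F12 with fetal bovine serum, and the labels give the strain as IRC mouse. Nothing in the labels says that the 3 libraries of a group came from separate cultures, so p-values measure only the spread between these libraries, which may be technical.

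ID proteins are small helix-loop-helix proteins without a DNA-binding region. They pair with E proteins and other basic helix-loop-helix (bHLH) factors and keep them from binding DNA, which holds many cell types in an undifferentiated state, and Id4 marks the spermatogonial stem cells of the mouse testis. Id genes are direct targets of BMP signalling through SMAD1 and SMAD5, and TGF-beta and activin signal through SMAD2 and SMAD3. Both branches also switch on their own inhibitors: the inhibitory SMADs Smad6 and Smad7 act at the receptors, the SKI-like protein Skil represses SMAD targets in the nucleus, and Bambi is a receptor decoy without a kinase. Inhba encodes the subunit of activin A and of inhibin A.

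The Id genes are shown first by the coding stretch in which they are most alike, because values of related genes depend on how well reads can be told apart. The lines give 40 codons (120 bases) of each reading frame from the GENCODE M21 transcripts of mouse build GRCm38, with capitals for the 69 bases that are the same in all 4 genes.
Id1: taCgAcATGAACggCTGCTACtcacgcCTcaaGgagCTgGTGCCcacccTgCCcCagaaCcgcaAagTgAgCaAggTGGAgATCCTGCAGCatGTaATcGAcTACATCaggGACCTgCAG
Id2: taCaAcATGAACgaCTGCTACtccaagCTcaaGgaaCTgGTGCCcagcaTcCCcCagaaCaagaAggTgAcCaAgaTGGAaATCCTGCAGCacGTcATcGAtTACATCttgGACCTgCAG
Id3: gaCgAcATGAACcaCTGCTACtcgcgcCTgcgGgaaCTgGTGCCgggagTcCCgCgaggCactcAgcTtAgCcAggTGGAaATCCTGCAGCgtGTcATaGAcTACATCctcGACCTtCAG
Id4: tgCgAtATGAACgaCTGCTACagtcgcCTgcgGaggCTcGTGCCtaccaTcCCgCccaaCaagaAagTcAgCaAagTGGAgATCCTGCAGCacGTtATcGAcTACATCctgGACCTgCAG

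In this stretch Id2 shared 81.7% of its bases with Id1, Id4 77.5% and Id3 70.8%. Even so, the longest run shared exactly by any pair of the complete transcripts was 17 bases (Id1 and Id4). The study's methods allow 2 mismatches in words and 3 in the aligner setting they print. The longest run shared with at most 2 differences was 33 bases, again in Id1 and Id4, and with at most 3 it was 39 bases, in Id1 and Id4 and in Id2 and Id4. A longer read without sequencing errors would match 1 of the 4 genes at either limit; the read length is not given in the sources used here.

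On GRCm38, Id1 lies at chromosome 2 (plus strand), 152736251 to 152737410. Id2 is at chromosome 12 (minus strand), 25093799 to 25097140. Id3 is on the plus strand of chromosome 4 from 136143497 to 136145755, and Id4 on the plus strand of chromosome 13 from 48261228 to 48266026. Each of Id3 and Id4 has 1 coding transcript with 3 exons. Smad6 lies at chromosome 9 (minus strand), 63953076 to 64022059, Skil on the plus strand of chromosome 3 from 31095058 to 31122577, and Inhba on the plus strand of chromosome 13 from 16011851 to 16031621.

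Promoter windows of Id2, Id3, Id4, Smad6 and Inhba, from 250 bases before to 50 bases after the RefSeq start on GRCm38.p6, were searched on both strands for 5 motifs. The palindrome GGCGCC, a motif bound by SMAD1 and SMAD5, occurred once each in the windows of Id2 and Id4, 231 and 148 bases before the start, and in 11.9% of all 32851 mouse windows. The SMAD motif GTCTG (or CAGAC on the other strand) occurred at 2 places in the Id3 window, 167 and 68 bases before the start, and in 49.6% of all windows. Each place is shown within 30 bases, with the motif in capitals, because the Id genes are known BMP targets.
Id2, chr12:25096306-25096335, minus strand: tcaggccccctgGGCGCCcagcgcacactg
Id4, chr13:48260956-48260985, plus strand: ctcgggttgcccGGCGCCccgccctcgcca
Id3, chr4:136143643-136143672, plus strand: tgtcctcggcgtCAGACcagcctaaggaag
Id3, chr4:136143742-136143771, plus strand: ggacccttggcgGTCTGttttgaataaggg

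Neither SMAD motif was in the windows of Smad6 and Inhba. The E-box CANNTG, the motif of bHLH factors, was in the windows of Id2 and Smad6 and in 72.3% of all windows. TGANTCA, the AP-1 motif, was in none of the 5 windows and in 7.81% of all. TGACG, part of the site of cAMP response factors, was in those of Id3 and Id4 and in 20.8% of all. The match of TGACG in Id3, 170 bases before the start, overlaps the SMAD motif at 167 bases. The Id2 and Id3 windows lie within the genes as GENCODE annotates them, since its starts lie further upstream. These matches describe the letters and are not evidence of binding.

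The libraries were deposited as RPKM (the reads of a gene divided by its length and by the mapped reads of the library), so levels are per length and can be set side by side between genes, while the depth in reads is unknown. The summed RPKM ranged from 533099 to 580920 over the libraries, and Spearman's correlation across genes was 0.9875 to 0.990 within groups. Testing was with limma on log2(RPKM + 1), for genes that reached 1 RPKM in 3 or more libraries. There were 11435 of them, including 8 of the 9 followed here. Every fold change below is on that scale, which understates the change of low genes, and every adjusted p is from limma with Benjamini-Hochberg adjustment over all genes tested. A gene is said to have risen or fallen where its adjusted p was 0.05 or less. No row of the table bears the name lncRNA5251, and a row under another symbol was not looked for. The level of lncRNA5251 was not analysed here. The 3 shRNA sequences directed at it, each 21 bases long, matched the transcripts of 1 gene exactly, Purb, a purine-rich element binding protein, and came no closer than 6 mismatches to any of the 9 genes. Purb was at 8.79 to 10.25 RPKM in KD and 32.92 to 34.11 in 3NC. It was at 23.94, 24.20 and 33.25 RPKM in the OV libraries and at 29.18 to 32.09 in 5NC. The insert of OV was not compared with Purb here. RNA from bulk cells cannot tell fewer cells that express a gene from less RNA per cell.

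The cells expressed Id3, Id1 and Id2 strongly and Id4 at a low level. Over all 12 libraries the mean was 107 RPKM for Id3, 82.0 for Id1, 48.2 for Id2 and 1.30 for Id4. Skil (17.3 RPKM), Smad6 (12.5), Smad7 (9.73) and Inhba (5.79) came next, and Bambi, at 0.128 RPKM, was the lowest. Of the 26 spermatogonial stem and progenitor markers in the table, only 6 had a mean of at least 1 RPKM, Id4 being one of them, and Ret, Nanos2, Pou5f1, Neurog3 and Kit were at 0 in all libraries. Of 9 Sertoli cell markers 5 reached that level, with Wt1, a transcription factor of Sertoli cells, at 52.0 RPKM and the other 4 at 1.77 to 5.76, while Sox9, Amh, Cldn11 and Dmrt1 were at or near 0. Of 10 mesenchymal markers 9 reached it. Of 5 Leydig markers 1 did, and of 5 markers of meiotic and later germ cells none did, with Prm1 and Tnp1 at 0 throughout. Most defining markers of the labelled cell type were thus at or near 0.

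**Figure D1:**
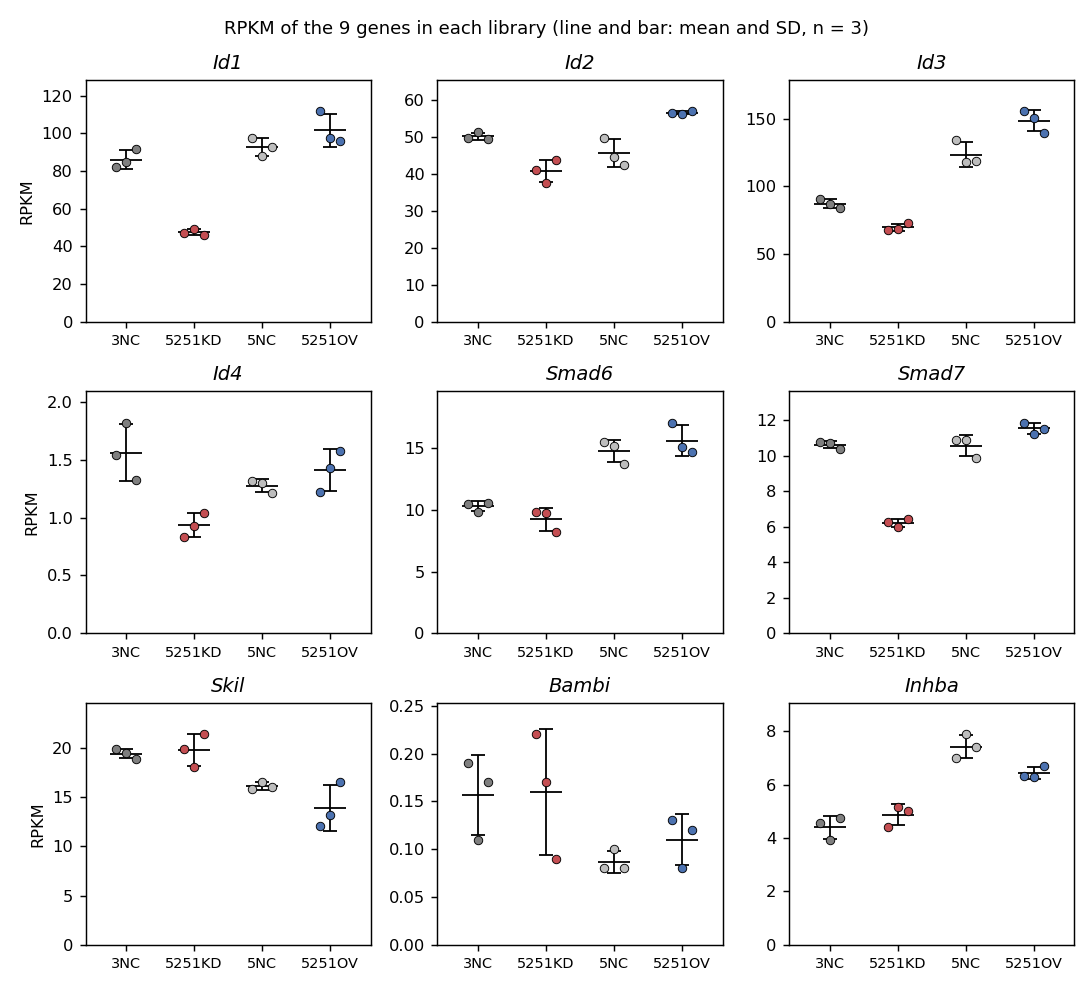
RPKM of each of the 9 genes (vertical axes from 0, a scale for each gene) in the 3 libraries of 3NC, KD, 5NC and OV. Points are libraries, and the line and bar give the mean and SD. Id1 and Smad7 in KD lie far below all other libraries, and Id3 takes 4 separate levels.

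Knockdown was compared with the control virus of the same vector. In KD, all 4 Id genes and Smad7 fell, Id1 and Smad7 most, while Smad6, Skil and Inhba did not pass the test. Of the 8 genes tested, 5 fell and 0 rose, and of all genes tested 23.5% fell and 31.9% rose. The libraries of KD and 3NC did not overlap for the same 5 genes, as for 62.8% of all genes. At the stricter threshold of the study's methods (an adjusted p no higher than 0.001 with a log2 fold change of 1 or more in size), 0 of the 8 genes passed in limma, against 1.57% of all genes, while 5 of the 8 had an unadjusted p of at most 0.05, as had 60.4% of all genes.

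Id1, a classic direct target of BMP signalling, was at 81.95, 84.81 and 91.38 RPKM in the 3NC libraries. It was at 47.28, 49.10 and 45.89 RPKM in KD. The highest KD library was thus well below the lowest 3NC library. The mean fell by 44.9%, from 86.0 ± 4.84 to 47.4 ± 1.61 RPKM (SD, n = 3 libraries each), a log2 fold change of -0.85 (standard error 0.06, adjusted p = 3.54e-08). Only 1.76% of all genes tested had a lower log2 fold change.

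Smad7, the inhibitory SMAD that recruits ubiquitin ligases to the TGF-beta receptor, changed by nearly as much. Its libraries were at 10.76, 10.69 and 10.39 RPKM in 3NC and at 6.26, 5.98 and 6.43 in KD. The groups lay far apart with little spread in either. Its log2 fold change of -0.69 had a standard error of 0.06 (adjusted p = 1.5e-07), with a fall of the mean by 41.4% from 10.6 ± 0.197 to 6.22 ± 0.227 RPKM (SD, n = 3).

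Id4 was low in every library. It was at 1.54, 1.82 and 1.33 RPKM in 3NC, and at 0.83, 0.93 and 1.04 RPKM in KD. Each KD library was below each 3NC library, and the 3NC libraries spread over a wider range. The mean fell by 40.3%, while the log2 fold change on the scale with 1 added was -0.40 (standard error 0.09, adjusted p = 0.00143).

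Id2 and Id3 fell less. Id2 was at 49.73, 51.25 and 49.35 RPKM in 3NC and at 41.09, 37.55 and 43.63 RPKM in KD, with no overlap. Its log2 fold change came to -0.29 (standard error 0.06, adjusted p = 0.000748), and its mean fell by 18.7%. Id3 was at 90.72, 86.86 and 84.04 RPKM in 3NC and at 67.96, 68.38 and 72.66 RPKM in KD, again with no overlap. Its mean fell by 20.1%, with a log2 fold change of -0.32 (standard error 0.06, adjusted p = 0.000234).

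The libraries of both groups overlapped for the remaining feedback genes. Smad6, which acts mainly on the BMP branch, was at 10.49, 9.81 and 10.57 RPKM in 3NC and at 9.83, 9.71 and 8.18 in KD. The highest KD value was just above the lowest 3NC value, and the log2 fold change came to -0.14 (standard error 0.08, adjusted p = 0.121). Skil was at 19.85, 19.53 and 18.89 RPKM in 3NC and at 19.94, 18.07 and 21.38 in KD, so that the 3NC range lay inside that of KD. Inhba was at 4.55, 3.93 and 4.76 RPKM in 3NC and at 4.43, 5.17 and 5.02 in KD, with overlapping ranges. The log2 fold changes were 0.02 for Skil (standard error 0.09, adjusted p = 0.842) and 0.12 for Inhba (standard error 0.08, adjusted p = 0.198).

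**Figure D2:**
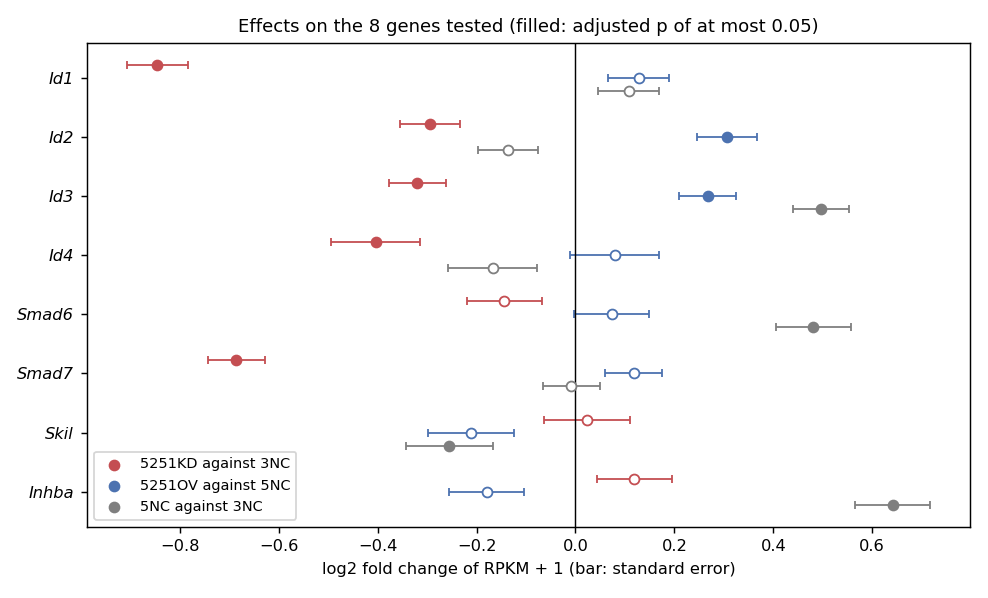
Log2 fold change of RPKM + 1 (horizontal axis) of the 8 genes tested, with the standard error as a bar, with red for KD against 3NC, blue for OV against 5NC and grey for both controls. Points are filled where the adjusted p was 0.05 or less: in KD the 4 Id genes and Smad7 are filled on the left, and in OV Id2 and Id3 are filled on the right.

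Overexpression was compared with the empty LV5 vector. In the OV libraries Id2 and Id3 rose, and no member fell. Of the 8 genes tested 2 rose, and of all genes tested 8.07% rose and 13.9% fell. The ranges of OV and 5NC did not overlap for 4 of the 8 genes (Id2, Id3, Smad7 and Inhba), and for 36.7% of all genes. At the threshold of the methods 0 of the 8 genes passed in limma, and 0% of all genes did, while 4 of the 8 had an unadjusted p of at most 0.05, as had 37.1% of all genes (4240).

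Id2 was at 49.66, 44.63 and 42.45 RPKM in 5NC and at 56.49, 56.06 and 56.90 in OV. The OV libraries were close together and all above 5NC. The mean rose from 45.6 ± 3.70 to 56.5 ± 0.42 RPKM (SD, n = 3), with a log2 fold change of 0.31 (standard error 0.06, adjusted p = 0.00438). Id3 was at 134.09, 117.86 and 118.71 RPKM in 5NC and at 155.59, 150.89 and 139.82 in OV. Its groups were separate, but the lowest OV library was near the highest 5NC library. The log2 fold change of Id3 was 0.27 (standard error 0.06, adjusted p = 0.00642), and its mean rose by 20.4%.

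Id1 was at 97.60, 88.06 and 92.73 RPKM in 5NC and at 111.65, 97.67 and 95.62 in OV. Its ranges overlapped, with replicate 1 of OV above the rest, and the log2 fold change of 0.13 (standard error 0.06) did not pass the test (adjusted p = 0.146). Id4 was at 1.32, 1.30 and 1.21 RPKM in 5NC and at 1.22, 1.43 and 1.58 in OV. These ranges overlapped as well, and the log2 fold change came to 0.08 (standard error 0.09, adjusted p = 0.543).

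Smad7 was at 10.89, 10.89 and 9.88 RPKM in 5NC and at 11.84, 11.23 and 11.50 in OV, with no overlap and a log2 fold change of 0.12 (standard error 0.06, adjusted p = 0.152). Smad6 was at 15.45, 15.13 and 13.71 RPKM in 5NC and at 17.04, 15.09 and 14.66 in OV, with overlap and a log2 fold change of 0.07 (standard error 0.08, adjusted p = 0.505). Neither inhibitory SMAD passed the test. Skil was at 15.80, 16.54 and 16.01 RPKM in 5NC and at 12.03, 13.18 and 16.50 in OV. Replicates 1 and 2 of OV were below every 5NC library and replicate 3 was not, and the log2 fold change came to -0.21 (standard error 0.09, adjusted p = 0.0941). Inhba was at 7.01, 7.89 and 7.40 RPKM in 5NC and at 6.33, 6.30 and 6.69 in OV. All OV libraries were lower, but the log2 fold change of -0.18 (standard error 0.08) did not pass (adjusted p = 0.0994).

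Replicate 3 of OV decided part of this comparison. Without it, 4 of the 8 genes passed: Id1 rose as well (log2 fold change 0.17, adjusted p = 0.0489) and Skil fell (log2 fold change -0.33, adjusted p = 0.00167). Over all alternatives the adjusted p ranged from 0.0489 to 0.538 for Id1 and from 0.00167 to 0.38 for Skil. The log2 fold change ranged from 0.06 to 0.17 for Id1 and from -0.33 to -0.12 for Skil. Over all genes the number called went from 2518 to 4181 without this library. It went to between 974 and 1639 without any 1 of the other 5 libraries of OV and 5NC (974 without replicate 2 of OV). The balance of all genes also depended on the scaling: 923 rose and 1595 fell as deposited, 933 rose and 948 fell after quantile normalization, and 521 rose and 2476 fell when all libraries were scaled to the same sum. Id2 and Id3 rose under each of these scalings.

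**Figure D3:**
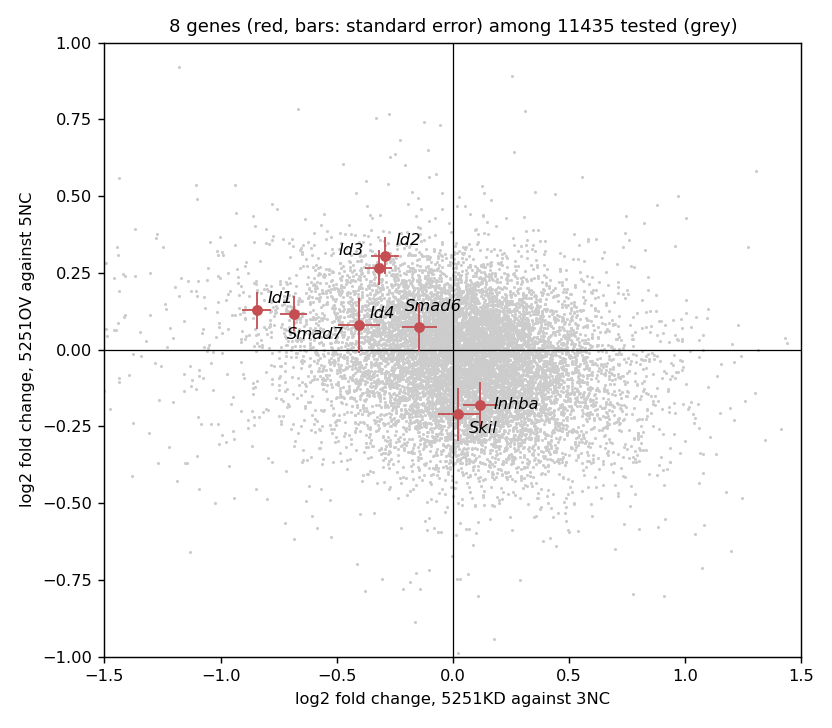
Log2 fold change of KD against 3NC (horizontal axis) and of OV against 5NC (vertical axis) for the 8 genes (red, bars give the standard error) among the 11435 genes tested (grey, 42 of them outside the plotted range). Every Id gene and both inhibitory SMADs lie at the upper left, and Skil and Inhba at the lower right.

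Both effects, which share no libraries, were compared by the difference of the differences. The effect in KD was lower than that in OV for Id1 (difference of log2 fold changes -0.97, standard error 0.09, adjusted p = 5.36e-07), for Smad7 (-0.80, standard error 0.08, adjusted p = 1.82e-06), for Id2 (-0.60, standard error 0.09, adjusted p = 4.2e-05), for Id3 (-0.59, standard error 0.08, adjusted p = 3.16e-05) and for Id4 (-0.48, standard error 0.13, adjusted p = 0.00527). For Inhba it was higher (0.30, standard error 0.11, adjusted p = 0.0298), a call that was lost in 7 of the 12 fits that left out 1 library (adjusted p from 0.0517 to 0.0871), with no filter on low values (adjusted p = 0.0515) and after quantile normalization (adjusted p = 0.242). Smad6 (-0.22, adjusted p = 0.103) and Skil (0.23, adjusted p = 0.125) did not pass, but Smad6 did after quantile normalization (adjusted p = 0.0387) and Skil without replicate 3 of OV (adjusted p = 0.00353). In all, 5 of the 8 genes had a lower and 1 a higher effect in KD, against 20.7% and 31.2% of all genes tested. At the threshold of the methods 0 of the 8 passed in limma, against 2.87% of all genes, while 6 of the 8 had an unadjusted p of at most 0.05, as had 57.8% of all genes.

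The control viruses differed from each other too. Between 5NC and 3NC, which carry different vectors and no lncRNA5251 construct, Id3, Smad6 and Inhba were higher in 5NC and Skil was lower. Of the 8 genes 3 were higher and 1 was lower, near the share of all genes tested (31.0% higher and 25.6% lower). Ranges did not overlap for 5 of the 8 (Id3, Id4, Smad6, Skil and Inhba), against 69.3% of all genes. At the threshold of the methods 0 of the 8 passed in limma, against 2.61% of all genes, while 5 of the 8 had an unadjusted p of at most 0.05, as had 61.4% of all genes.

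Inhba differed most between the controls, from 4.41 ± 0.432 RPKM in 3NC to 7.43 ± 0.441 in 5NC (SD, n = 3), a log2 fold change of 0.64 (standard error 0.08, adjusted p = 4.37e-06). Id3 was at 87.2 ± 3.35 and 124 ± 9.13 RPKM (log2 fold change 0.50, standard error 0.06, adjusted p = 3.28e-06). Smad6 was at 10.3 ± 0.418 and 14.8 ± 0.926 RPKM (log2 fold change 0.48, standard error 0.08, adjusted p = 7.66e-05). In these 3 genes and in Skil the log2 fold change between the vectors was greater in size than that of either construct against its own vector. Skil went from 19.4 ± 0.489 to 16.1 ± 0.381 RPKM (log2 fold change -0.25, standard error 0.09, adjusted p = 0.0216), a call lost with no filter on low values (adjusted p = 0.0512), when scaled to the same sum (adjusted p = 0.083) and without replicate 1 or 2 of 3NC or 1 or 3 of 5NC (adjusted p from 0.0536 to 0.064). Id1 (0.11, adjusted p = 0.149), Id2 (-0.14, adjusted p = 0.0653), Id4 (-0.17, adjusted p = 0.127) and Smad7 (-0.01, adjusted p = 0.909) did not pass. Id1 passed, as higher in 5NC, when libraries were scaled to the same sum (adjusted p = 0.0263). Id2 passed, as lower in 5NC, after quantile normalization (adjusted p = 0.0194), in the fit to the 6 control libraries (adjusted p = 0.0351) and without replicate 1 of 5NC (adjusted p = 0.013) or replicate 2 or 3 of KD (adjusted p = 0.0435 and 0.0419). The sign of Smad7 turned when libraries were scaled to the same sum (log2 fold change 0.03).

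The choice of control therefore matters for some of the genes. Against 5NC, 7 of the 8 genes were lower in KD and 1 was higher, where 31.4% of all genes were lower and 34.0% were higher. Id1 (log2 fold change -0.95), Smad7 (-0.68), Id3 (-0.82), Id4 (-0.24) and Id2 (-0.16) were lower against either control. Smad6 (-0.62), Inhba (-0.52) and Skil (0.28), which did not pass against 3NC, passed against 5NC, the first 2 of them lower and Skil higher. Vector and lncRNA5251 construct cannot be told apart in this last comparison, which shares its KD libraries with the one above.

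The order of the levels differed from gene to gene. Id3 took 4 levels that did not overlap, with OV above 5NC, 5NC above 3NC and 3NC above KD. For Id1 the libraries of OV, 5NC and 3NC overlapped from neighbour to neighbour, and only KD stood apart, at the bottom. Id4 and Smad7 also had KD alone at the bottom. For Id4 the OV libraries overlapped with those of 3NC and of 5NC, while 5NC (1.32 or less) lay just below 3NC (1.33 or more). For Smad7 the OV libraries (11.23 or more) were above those of 3NC (10.76 or less) but 3NC and 5NC overlapped. In Id2 only OV stood apart, at the top, while 3NC overlapped with 5NC and 5NC with KD. Smad6 and Skil fell into pairs by vector: Smad6 was higher in both LV5 groups and Skil in both LV3 groups, and groups on the same vector overlapped. Inhba was highest in 5NC, then in OV, and KD and 3NC overlapped below them.

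Bambi was at 0.08 to 0.22 RPKM in all libraries, under the filter on low values. It was at 0.19, 0.11 and 0.17 RPKM in 3NC, at 0.22, 0.17 and 0.09 in KD, at 0.08, 0.10 and 0.08 in 5NC and at 0.13, 0.08 and 0.12 in OV. Groups next to each other in the order of means overlapped, but the 5NC libraries were all below those of 3NC. With no filter on low values and a pseudocount of 0.1, the log2 fold change of 5NC against 3NC was -0.45 (standard error 0.20) and did not pass (adjusted p = 0.0998). Bambi and Smad7 lie on chromosome 18, Bambi from 3507923 to 3516404 and Smad7 from 75367529 to 75395935, both on the plus strand.

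As RPKM are per length, the levels of the 4 Id genes can be added. Their sum was 225 ± 1.0 RPKM in 3NC and 159 ± 3.79 in KD (SD, n = 3). On the LV5 vector it was 263 ± 17.1 in 5NC and 308 ± 15.6 in OV. The lowest library was at 156 RPKM, in KD, and the highest at 325, in OV. The make-up changed along with the sum. Id1 made up 38.2% ± 1.96 of it in 3NC and 29.9% ± 1.71 in KD, and Id3 went from 38.8% ± 1.66 to 43.8% ± 0.651. The ratio of Id3 to Id1 was 1.02 ± 0.095 in 3NC and 1.47 ± 0.0985 in KD, and on the LV5 vector 1.33 ± 0.0458 in 5NC and 1.46 ± 0.0751 in OV. It was thus higher in the other groups than in 3NC, through less Id1 in KD and through more Id3 in the LV5 groups. Id4 stayed under 1% of the sum in every library (0.375% to 0.81%).

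**Figure D4:**
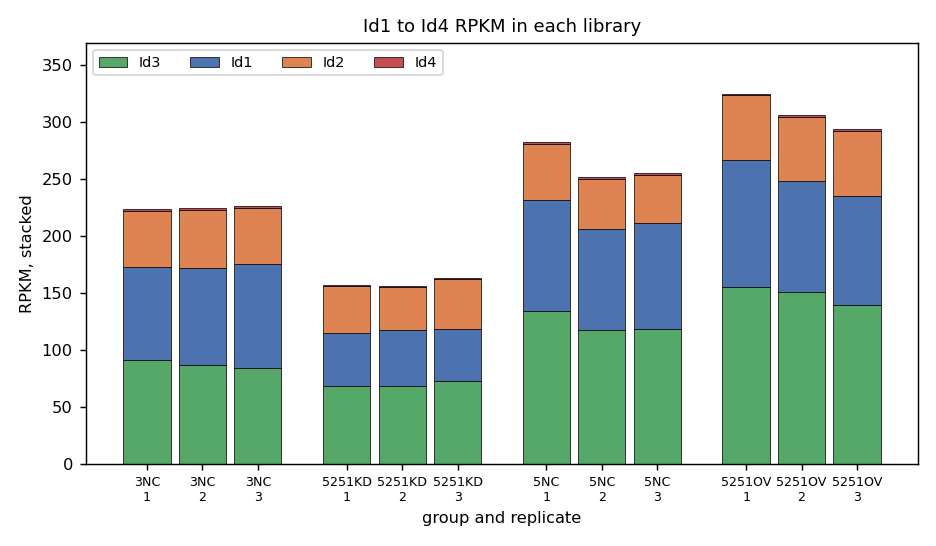
RPKM of Id3, Id1, Id2 and Id4 stacked (vertical axis from 0) for each library of the 4 groups. The KD bars reach 156 to 163 RPKM, below the 3NC bars at 224 to 226, and the OV bars reach 294 to 325, above the 5NC bars at 252 to 283. Id4 is the thin band on top.

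The genes with the pattern most like that of the 3 most variable members were found by Pearson's r of log2(RPKM + 1) over the 12 libraries, given as a description, since the libraries fall into the 4 groups. For Id3 they were Hnrnpab (r = 0.996), Rab32 (0.991) and Sys1 (0.989), and 251 genes in all had r of at least 0.95. For Id1 they were Arhgdib (0.992), Wdr4 (0.991) and Phf23 (0.991), with 236 genes over that limit, and for Smad7 they were Ddx18 (0.991), Gnl3 (0.991) and Atic (0.988), with 175. Among the members, Id1 and Smad7 were the closest pair (r = 0.973).

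The other genes of the pathway were read from 9 lists of ligands, receptors, SMADs, inhibitors, targets and bHLH partners. Over the lists together, the members left out, 108 of the 149 genes in the table were tested. In KD 28.7% of them rose and 29.6% fell, in OV 8.33% rose and 19.4% fell, and in 5NC 47.2% were higher and 18.5% lower than in 3NC. The shares of all genes tested were 31.9% and 23.5%, 8.07% and 13.9%, and 31.0% and 25.6% in the same order. The counts of the single lists and of the marker lists below are to be read beside these shares of all genes. The medians of the lists together were compared as well. They were log2 fold changes of 0.02, -0.04 and 0.17, beside 0.04, -0.03 and 0.02 for all genes tested.

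Among ligands, Gdf15, a stress-induced member of the family, had the highest mean (57.7 RPKM). It fell in KD, from 40.7 ± 2.04 to 26.8 ± 2.63 RPKM (log2 fold change -0.59, adjusted p = 3.56e-06), and was the same in both LV5 groups (81.7 RPKM in each). Of 4 BMP and GDF ligands tested, 1 rose (Gdf6, log2 fold change 0.90) and 2 fell (Gdf15 and Bmp6, -0.21) in KD. None passed in OV by limma, and 0 had an unadjusted p of at most 0.05, against 37.1% of all genes. All 4 were higher in 5NC than in 3NC, among them Bmp4 (log2 fold change 1.09), a ligand that turns on Id genes in many cells. In the TGF-beta, activin and nodal list, of 6 ligands tested beside Inhba, Tgfb1 fell in KD (-0.19, adjusted p = 0.0245) and Tgfb3 rose (0.16, adjusted p = 0.0308). In OV Tgfb3 rose (0.18, adjusted p = 0.036) and Gdf11 fell (-0.30, adjusted p = 0.045). Tgfb2 (0.96) and Tgfb3 (0.87) were higher and Tgfb1 (-0.55) lower in 5NC than in 3NC.

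Of 12 receptors and co-receptors tested, 7 rose and 1 fell in KD, and 0 rose and 5 fell in OV, where 6 had an unadjusted p of at most 0.05, beside 37.1% of all genes. Bmpr1a, a type I receptor of BMPs and the most abundant receptor (26.5 RPKM), rose in KD (log2 fold change 0.26, adjusted p = 0.0134) and fell in OV (-0.28, adjusted p = 0.0272). Bmpr2, the type II receptor of BMPs, went the same way (0.40, adjusted p = 0.0113, and -0.38, adjusted p = 0.0356). Tgfbr3, the co-receptor betaglycan, fell in KD from 7.01 ± 0.424 to 3.43 ± 0.182 RPKM (-0.85, adjusted p = 1.16e-07). Tgfbr2, at 18.8 RPKM, passed in neither (log2 fold changes -0.03 and -0.10).

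Of 13 receptor-regulated and common SMADs and their partners tested, 2 rose and 4 fell in KD, and 0 rose and 1 fell in OV. The falls in KD were in the partner genes Runx3 (log2 fold change -0.75), Runx1 (-0.66) and Runx2 (-0.31) and in Smad3 (-0.25, adjusted p = 0.00158). Smad4, the common SMAD, was the most abundant of the SMADs in the list (43.9 RPKM) and rose slightly in KD (0.15, adjusted p = 0.0254). Smad2 (16.2 RPKM) did not pass in KD (-0.14, adjusted p = 0.0735). In OV the fall was in Ep300 (-0.31, adjusted p = 0.00835), a histone acetyltransferase.

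Among 15 genes tested beside the members from the list of intracellular inhibitors, 2 rose and 5 fell in KD. Usp15 and Rnf111 are in this list but are not inhibitors of the pathway. Usp15 was among the 5 (log2 fold change -0.25, adjusted p = 0.00943), and Rnf111 did not pass in KD. Tgif1, a SMAD corepressor, fell there from 16.0 ± 0.682 to 9.63 ± 0.80 RPKM (log2 fold change -0.68, adjusted p = 6.68e-07) and rose in OV from 19.0 ± 0.748 to 22.7 ± 1.40 (0.24, adjusted p = 0.0186). Its fold change in KD was near that of Smad7. Tob1 (-0.57) and Tob2 (-0.47), antiproliferative proteins that bind SMADs, fell as well. Ski, the relative of Skil, rose (0.43, adjusted p = 3.71e-06), whereas Skil did not pass. Ski was also higher in the control 5NC than in 3NC (log2 fold change 0.47, adjusted p = 1.33e-06). Its 3NC mean of 18.9 RPKM stood alone, below means of 25.8 (KD), 26.5 (5NC) and 26.3 (OV) that lay close together. Smurf2, a ubiquitin ligase that partners with Smad7, rose in KD (0.26, adjusted p = 0.00364) and fell in OV (-0.28, adjusted p = 0.0114). In OV 2 of the 15 rose and 1 fell.

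**Figure D5:**
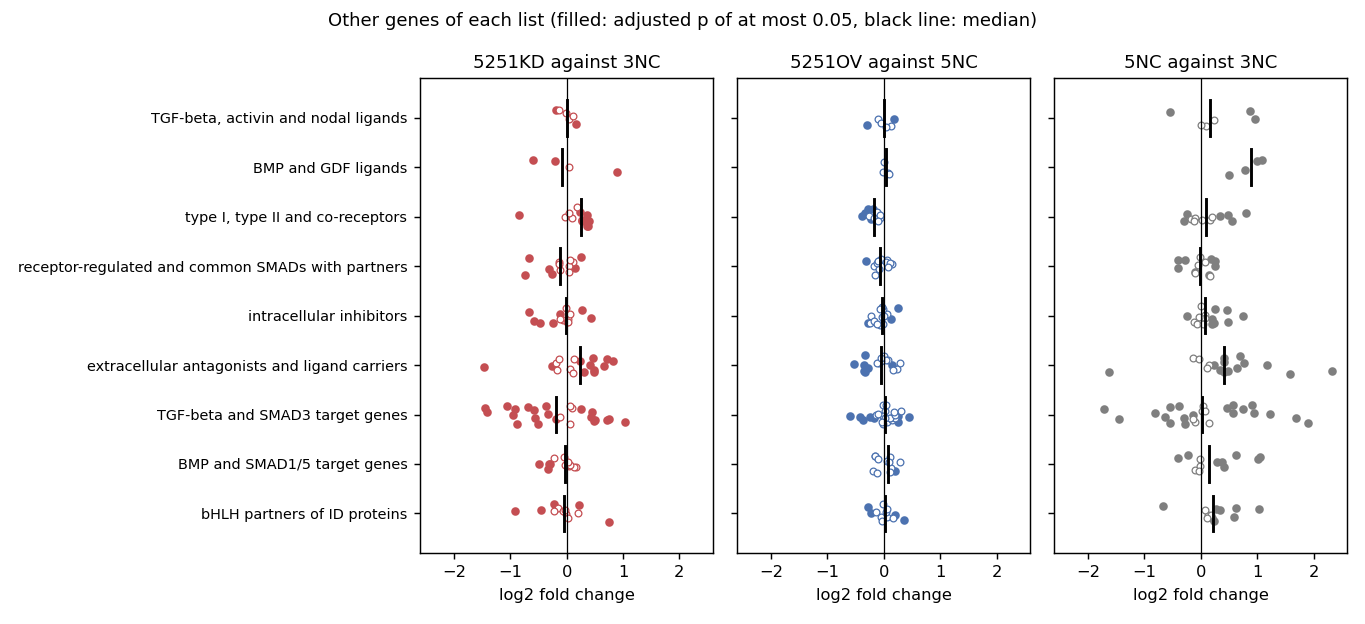
Log2 fold change (horizontal axes) of the other tested genes of each of the 9 lists (rows, the 9 members left out) in the panels for KD, for OV (each against its control) and for 5NC against 3NC. Points are genes, filled where the adjusted p was 0.05 or less, and black lines are medians. The receptor median is 0.25 in KD and -0.18 in OV.

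Among 17 extracellular antagonists and ligand carriers tested, 9 rose and 2 fell in KD, 1 rose and 6 fell in OV, and 12 were higher and 1 was lower in 5NC than in 3NC. Ltbp1, which anchors latent TGF-beta in the matrix, fell in KD from 4.12 ± 0.0513 to 0.86 ± 0.0458 RPKM (log2 fold change -1.46, adjusted p = 1.89e-09). It was as low on the LV5 vector, at 0.667 ± 0.14 RPKM in 5NC and 0.957 ± 0.111 in OV, so that 3NC alone stood apart. Chrd, the BMP antagonist chordin, rose in KD (0.83, adjusted p = 1.18e-06) and fell in OV (-0.33, adjusted p = 0.0169). Decorin (Dcn), a matrix proteoglycan that binds TGF-beta, was at 21.6 ± 0.703 RPKM in 3NC, 36.1 ± 1.84 in KD and 112 ± 3.03 in 5NC.

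Targets of both branches of the pathway were listed too. Of 25 TGF-beta and SMAD3 targets tested beside the members, in KD 8 rose and 13 fell, and the median log2 fold change was -0.19. Cdkn1a, a cell cycle inhibitor, fell by 1.41 on the log2 scale (adjusted p = 8.98e-11), and Fn1, fibronectin, by 1.06 (adjusted p = 2.4e-08). Acta2, smooth muscle actin, rose (1.04, adjusted p = 3.27e-08) and fell in OV (-0.60, adjusted p = 0.000244). In OV 3 of the 25 rose and 5 fell. Between the controls, Cdkn1a (-1.71) was lower in 5NC than in 3NC.

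Of 12 BMP and SMAD1/5 targets tested beside the members, 4 fell and 0 rose in KD, where 6 had an unadjusted p of at most 0.05, beside 60.4% of all genes. The 4 were the transcription factor genes Dlx2 (log2 fold change -0.49, adjusted p = 0.000308), Gata2 (-0.32, adjusted p = 0.0016), Runx2 (-0.31, adjusted p = 0.000702) and Hey2 (-0.29, adjusted p = 0.0274). Each changed less than Id1. In OV Hes1, a bHLH repressor better known as a Notch target, rose (0.19, adjusted p = 0.0306), and 0 of the 12 fell. Between the controls 6 were higher and 2 lower in 5NC, with Atoh8 (1.06) and Dlx5 (1.01) the most changed.

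Of 12 genes tested from the list of bHLH partners of ID proteins, 2 rose and 3 fell in KD, and 2 rose and 2 fell in OV. Mxd1 (log2 fold change 0.22, adjusted p = 0.035), in the list but not an established partner of ID proteins, was among the 2 that rose in KD. Tcf3, which encodes the E proteins E12 and E47 and was the most abundant partner (38.0 RPKM), fell slightly in KD (log2 fold change -0.22, adjusted p = 0.021). Its mean went from 34.1 ± 1.57 to 29.3 ± 3.12 RPKM, beside the fall of the summed Id genes from 225 to 159. Bhlhe40, a bHLH repressor of the circadian clock, fell from 39.1 ± 0.20 to 20.3 ± 0.572 RPKM (-0.91, adjusted p = 5.56e-10), about as far as Id1. Scx, the tendon factor scleraxis, rose in KD (0.76, adjusted p = 1.16e-05) and in OV (0.36, adjusted p = 0.0205). The E protein genes Tcf4 (-0.28, adjusted p = 0.00608) and Tcf12 (-0.23, adjusted p = 0.0298) fell in OV, where Id2 and Id3 rose.

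Levels of the marker lists were compared over the groups. The 26 spermatogonial markers summed to 26.4 to 27.7 RPKM in 3NC and to 20.2 to 22.1 in KD, and to 19.5 to 21.0 in 5NC and 17.7 to 19.8 in OV. Without Id4, 5 of these markers were tested, of which 1 rose and 2 fell in KD. Etv5, a transcription factor of spermatogonial stem cells, carried most of the lower sums, with a mean of 7.81 RPKM in 3NC against 2.35 in KD, 3.10 in 5NC and 2.86 in OV, while Itga6, an integrin of these cells, was at 5.51 in 3NC and 7.26 in KD. The 10 mesenchymal markers summed to 904 to 950 RPKM in 3NC and 1040 to 1140 in KD, and to 1230 to 1270 in 5NC and 1280 to 1370 in OV. Of 9 mesenchymal markers tested 6 rose in KD, beside 31.9% of all genes. The 9 Sertoli markers summed to 61.9 to 64.0, 63.5 to 66.3, 67.5 to 69.6 and 70.0 to 73.4 RPKM in the same order, so that 3NC and KD overlapped, and 1 of 5 tested rose in KD. Leydig and later germ cell markers were low throughout: the 5 Leydig markers to at most 2.43 and the 5 markers of later germ cells to at most 1.59. The part of the shifts in the spermatogonial and mesenchymal sums in the changes of the Id genes and Smad7 was not tested.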

How the data were processed

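RNA-seq of 12 C18-4 libraries, 3 in each of 4 groups, was analysed from 1 deposited table. The authors enriched mRNA with oligo(dT) beads (the labels name total RNA), mapped reads with SOAPaligner with at most 2 mismatches by the text of the methods (3 by the printed setting) and transformed read numbers into RPKM, the deposited unit. The genome build and gene set are not given in the sources used here. RPKM keep no read numbers, so the depth is unknown and the authors' test, DEGseq, was not run. The supplementary heading for C18-4 names lncRNA8276; the labels were followed.

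From the RPKM, log2(RPKM + 1) was fitted with limma 3.58.1 (lmFit, eBayes with trend) in R 4.3.3, with a term for the group over all 12 libraries, for the 11435 genes that reached 1 RPKM in 3 or more libraries, with Benjamini-Hochberg adjustment over all of them. The fit was tested on simulated data. The 9 genes, the gene and marker lists and the tests were chosen with earlier results of these data known. Named from each list were genes among the 5 with the largest change past the threshold in a comparison and, by the highest mean, 1 ligand, 2 receptors, 2 SMADs (partners such as Ywhae not counted) and 2 bHLH partners. Wt1, Purb, the other single markers named, Usp15, Rnf111 and Mxd1 were picked after their values were seen. A gene that this rule picks is left out of the text. The genes most like a member were the 3 with the highest r, for the 3 members with the largest range of group means. Coordinates and coding sequences were from GENCODE M21, promoters from RefSeq (GRCm38.p6, 5 of the 9 genes used), and tables and figures were made with Python 3.11.15 and matplotlib 3.10.9. Alternatives were another pseudocount (0.1), no filter, quantile normalization, scaling to the same sum, fits to the groups compared, a replicate block, the threshold of the methods, 5NC as the control and leaving out each library.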

Additional observations from a re-analysis of the deposited data

How the results depend on the processing

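The fall of Id1, Id2, Id3, Id4 and Smad7 in KD kept its direction and its side of the threshold under every alternative run other than the threshold of the methods, and so did the rise of Id2 and Id3 in OV. At the threshold of the methods 0 members passed in each of the 4 comparisons, and the counts of all genes were 180 in KD, 0 in OV, 298 in 5NC against 3NC and 328 for the difference of effects. With 5NC as the control, 8 members were called in KD, and Inhba turned to -0.52. Leaving out each library in turn gave 5 members in KD, 2 to 4 in OV, 3 to 5 between the controls and 5 to 7 for the difference. All genes called in OV ranged from 974 to 4181 over these fits, and were 1490 in a fit to the 6 libraries of its groups. The other signs that turned, none of them called, were those of Skil in KD (-0.0312 to 0.0843 over the fits without 1 library, lowest without replicate 3 of KD) and of Smad7 between the controls (0.0315 when scaled to the same sum, and -0.0299 to 0.0341 over the fits without 1 library). The cause was not tested. Of 608 values of single genes under these alternatives, 574 kept their sign and their side of the threshold, 16 lost the call, 13 gained it and 5 changed sign. Many of the 608 could not change sign. The fold change stayed as it was with a replicate block, in fits to the groups compared and without a library of another group. Inhba passed in OV when scaled to the same sum (log2 fold change -0.24, adjusted p = 0.045). Same-numbered libraries did not deviate together (a correlation over 0.1 in 5 of 18 pairs, range -0.178 to 0.354), so the numbers were not taken as pairs; with a replicate block 5, 2, 4 and 6 members were called, as without it. Bambi, tested without a filter (an added alternative with the pseudocount 0.1, chosen after seeing the data), did not pass in any comparison. Low RPKM limit what can be said of Bambi and Id4.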
